A study of Mus musculus with 56 samples.

Results

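The comparison set mouse keratinocytes after 24 h of transforming growth factor β1 (TGF-β1) against such cells after 1 h. It used 24 of the 56 arrays of the series, all of the Balb/c arrays at 24 h and 1 h on which the treated RNA carried the dye Cy5. There were 6 arrays each of ras keratinocytes at 24 h, ras keratinocytes at 1 h, primary keratinocytes at 24 h and primary keratinocytes at 1 h. Primary keratinocytes were cultured from the skin of newborn Balb/c mice. Ras keratinocytes were such cultures transduced on day 3 with a replication-defective retrovirus that carried the Ha-ras oncogene, and treatments followed 4 days later. All treated cells received TGF-β1 at 1 ng/ml, and the other channel of each array held RNA of the matching untreated cells. A further ras array at 24 h, with the dyes reversed, was left out of every test and is described on its own. The labels do not say whether arrays of a group came from separate cultures or animals, while the design text mentions multiple arrays for each time, so the p-values may measure only the spread between arrays.

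TGF-β1 is a secreted cytokine that binds a pair of receptor kinases at the cell surface. The active receptor phosphorylates SMAD2 and SMAD3, which join SMAD4, enter the nucleus and act on target genes, some of them within the first hour. In cultured keratinocytes TGF-β1 is known as an inhibitor of proliferation and an inducer of matrix genes. Oncogenic Ha-ras keeps the MAP kinase pathway active and is an early lesion of skin papillomas in mice.

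Each value below is a log2 ratio of treated over untreated RNA, centred on the median of its array, so that 0 is no response to TGF-β1. The direction is likely from the order of the channels in the labels and is not stated outright. A change is the response at 24 h minus the response at 1 h, fitted with limma with cell type as a block. A feature was called where its Benjamini-Hochberg adjusted p was below 0.05 over the 8905 features, of which 6795 were named genes. A preference of a gene for 1 of the dyes that is the same at both times cancels in the change, but it stays in the response at either time. Only ratios were used, so neither the level of a gene nor the brightness behind a ratio is known, and precision is limited by how many arrays there were. In such bulk RNA, fewer cells of a type and less RNA per cell cannot be told apart. The spread of the log2 ratios over the probes of an array (SD) ran from 0.235 to 1.81 over the 24 arrays, and the widest were ras 24 h replicates 1 and 3. The median correlation between arrays of a group over all features was 0.151 in ras cells at 24 h, 0.049 in ras cells at 1 h, 0.143 in primary cells at 24 h and 0.024 in primary cells at 1 h. The label keratinocyte could not be checked by level from ratios. Of the keratinocyte markers Krt5, Trp63, Itga6, Itgb4 and Cdh1, none passed the test of the change, with adjusted p-values from limma between 0.598 for Itgb4 and 0.952 for Cdh1.

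The change passed the test for 106 of the 8905 features (1.19%). The response was higher at 24 h than at 1 h for 43 of them (0.483%) and lower for 63 (0.707%). Of the 106, 85 were named genes, 36 higher and 49 lower, and for all 106 the estimates within ras cells and within primary cells had the same sign. The call rests on both cell types together in these same arrays, which favours equal signs. Their share over all features was not counted. At an unadjusted p under 0.05 there were 1164 features. The feature just inside the threshold was Psme1, with a change of 0.66 and an adjusted p of 0.0493 by limma, and the one just outside was Plin2, with a change of 0.51 and an adjusted p of 0.0515. Tested one time at a time against 0, 566 features (6.36%) had a response at 24 h, 256 higher (2.87%) and 310 lower (3.48%) than in untreated cells, while 12 (0.135%) had one at 1 h, 9 higher (0.101%) and 3 lower (0.0337%). The response at 24 h without a called change covered 466 features. For these the data do not separate an early response that lasted, a late one too small to call, and a constant preference for a dye. With all arrays scaled to the same spread, the response at 1 h was called for 21 features, 18 higher and 3 lower.

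Most called changes were late. In 99 features the change and the response at 24 h were called with the same sign and the response at 1 h was not, 40 of them rises (33 named) and 59 falls (45 named). In 8 of the 99 the estimate at 1 h, whatever its sign, was more than 0.5 times the size of that at 24 h. A transient pattern, with a called response at 1 h, a called change of opposite sign and no lasting response of that sign at 24 h, was found for 4 genes. A sustained pattern, with called responses of the same sign at both times, was found for 4 others. The change was called with none of these patterns for Cdk5r1, Fjx1 and Serpina3n, which are named here because they are so few. These classes follow from the calls, so the values that define them are a description.

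The transient genes were Klf10 and Skil, which were higher than in untreated cells at 1 h, and Myc and Rnd3, which were lower. Klf10 encodes a Krüppel-like transcription factor first known as TIEG1, an early gene of TGF-β. In ras cells its lowest, median and highest log2 ratios over 6 arrays were -0.98, -0.52 and -0.06 at 24 h, against 0.21, 0.86 and 0.99 at 1 h. In primary cells they were -0.92, -0.41 and -0.11 at 24 h, against 0.43, 0.70 and 1.70 at 1 h. Every 24 h array lay below 0 and every 1 h array above it, so the groups did not overlap in either cell type. The change was -1.30 (SE 0.15, limma adjusted p = 4.25e-05), a ratio 2.46 times lower at 24 h. The response of Klf10 at 24 h was -0.50 (adjusted p = 0.00356 by limma), on the other side of 0 from the 0.80 at 1 h.

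Skil encodes SnoN, a repressor that binds SMADs and is itself a TGF-β target. Its log2 ratios in ras cells were -0.77, 0.03 and 1.31 (lowest, median, highest) at 24 h, against 1.01, 1.19 and 1.96 at 1 h. Primary cells gave -0.17, 0.16 and 1.47 at 24 h, against 0.51, 0.94 and 1.53 at 1 h. A few 24 h arrays thus reached into the range of the 1 h arrays in both cell types. The change was -0.94 (SE 0.23, limma adjusted p = 0.0426), and it lost its call in 19 of the 24 fits that each left out 1 array, with adjusted p-values up to 0.0833.

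Myc encodes a transcription factor that drives growth and proliferation. In ras cells its log2 ratios were -0.66, 0.12 and 0.80 at 24 h, against -2.64, -1.47 and -0.89 at 1 h. The primary values were -1.33, -0.20 and 2.37 at 24 h, against -1.32, -0.99 and -0.37 at 1 h. All 1 h arrays were below 0, and the 24 h arrays were scattered around 0, without overlap in ras cells and with overlap in primary cells. The change was 1.35 (SE 0.32, limma adjusted p = 0.0368), and the call was lost in 11 of the 24 fits without 1 array, with adjusted p-values up to 0.0778. Rnd3, an atypical small GTPase that loosens actin stress fibres, had log2 ratios of -0.23, 0.28 and 0.75 in ras cells at 24 h, against -0.77, -0.55 and 0.06 in ras cells at 1 h. Those of primary cells were -0.28, -0.03 and 0.71 at 24 h, against -0.93, -0.63 and -0.32 at 1 h. The primary groups did not overlap and the ras groups did, and the change of Rnd3 was 0.75 (SE 0.15, limma adjusted p = 0.0065).

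**Figure D1:**
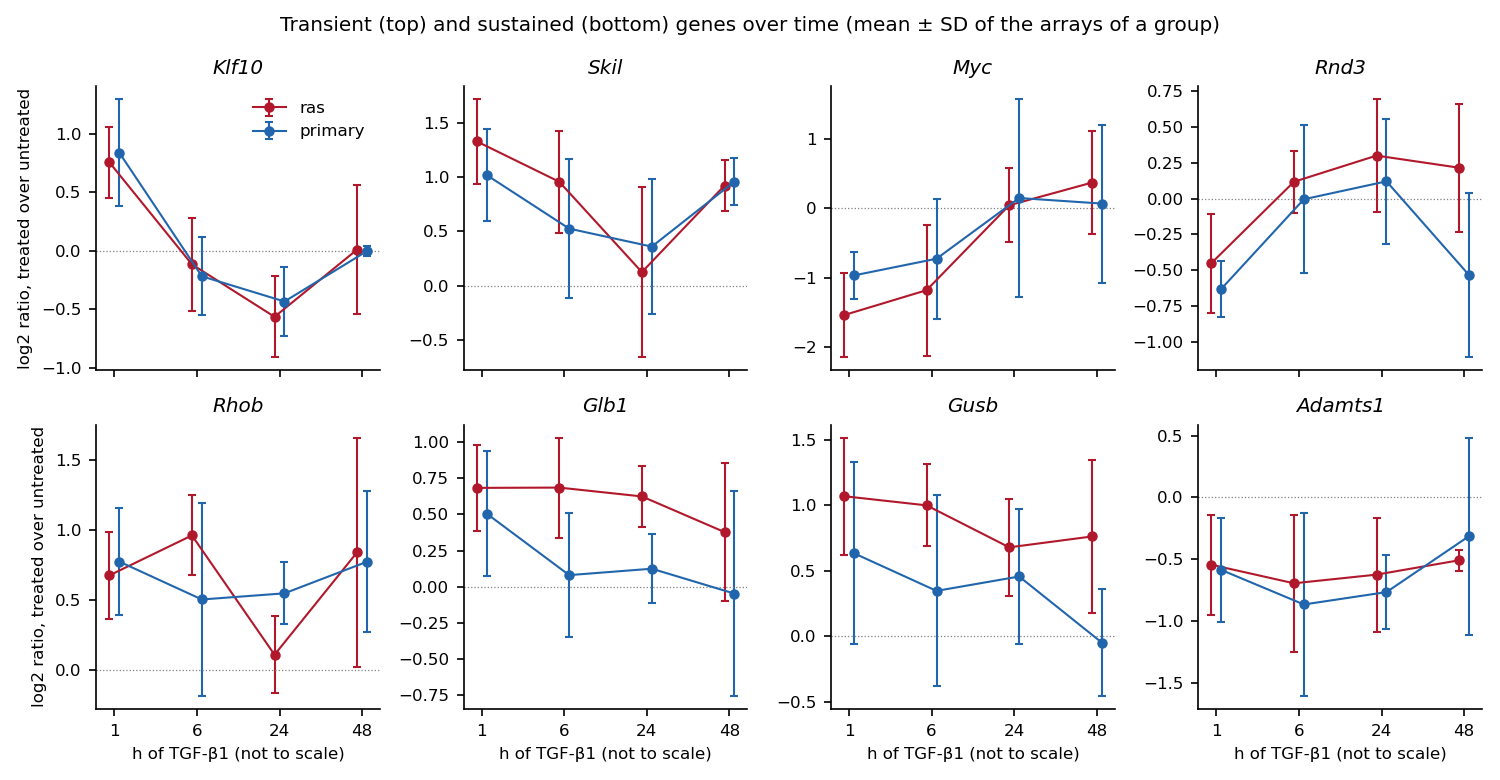
Mean log2 ratio (treated over untreated, ± SD over the arrays of a group) at 1, 6, 24 and 48 h for the 4 transient genes (top) and the 4 sustained genes (bottom), in ras and primary keratinocytes. Klf10 lies above 0 at 1 h and below 0 at 24 h in both cell types, while Adamts1 lies below 0 at both times.

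Arrays at 6 h and 48 h, which the change did not use, filled in the course of the transient genes. There were 7 arrays of each cell type at 6 h, and 4 ras and 3 primary arrays at 48 h. Klf10 averaged 0.76 at 1 h, -0.12 at 6 h, -0.57 at 24 h and 0.01 at 48 h in ras cells. Skil averaged 1.33, 0.96, 0.12 and 0.92 at the same times in ras cells, and 1.02, 0.53, 0.36 and 0.96 in primary cells, so its mean was lowest at 24 h in both. Myc averaged -1.54, -1.18, 0.05 and 0.37 in ras cells from 1 h to 48 h, with the 6 h mean still well below 0. Between 6 h and 1 h, 2 of the 8905 features changed (0.0225%), Klf10 with -0.97 (SE 0.15, limma adjusted p = 0.000714) and Id2 with -0.98 (SE 0.20, adjusted p = 0.0498). This comparison shares its 1 h arrays with the 24 h comparison.

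The sustained genes were Rhob, Glb1 and Gusb, all above untreated cells at both times, and Adamts1, below at both. Rhob encodes an endosomal small GTPase whose gene is induced early by many stimuli. In ras cells its lowest, median and highest values were -0.17, 0.03 and 0.57 at 24 h, against 0.10, 0.75 and 0.97 at 1 h. Primary keratinocytes had 0.25, 0.54 and 0.79 at 24 h, against 0.42, 0.72 and 1.45 at 1 h. In primary cells every array was above 0 at both times, and in ras cells the 24 h arrays were scattered around 0. The response of Rhob was 0.33 at 24 h (adjusted p = 0.0351) and 0.73 at 1 h (adjusted p = 0.000265), and its change of -0.40 (SE 0.13, adjusted p = 0.166) did not pass the limma test.

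Glb1 and Gusb encode the lysosomal enzymes β-galactosidase and β-glucuronidase. The response of Glb1 was 0.37 at 24 h (adjusted p = 0.0166) and 0.59 at 1 h (adjusted p = 0.00276). The response of Gusb was 0.57 at 24 h (adjusted p = 0.0179) and 0.85 at 1 h (adjusted p = 0.00512). Their estimates were larger in ras than in primary cells at both times, with Glb1 medians of 0.60 in ras and 0.14 in primary cells at 24 h, and 0.73 in ras and 0.55 in primary cells at 1 h, which was not tested. Adamts1, a secreted metalloprotease that cleaves proteoglycans, had a response of -0.69 at 24 h (adjusted p = 0.000421) and of -0.56 at 1 h (adjusted p = 0.0358), and all 24 of its arrays lay below 0. Since the change of these 4 genes was not called, a lasting response and a constant preference for a dye cannot be told apart in them. On the reversed ras 24 h array as deposited, the 4 values were near 0, -0.01 for Rhob, -0.08 for Glb1, -0.12 for Gusb and 0.26 for Adamts1.

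A further 4 genes had a called response at 1 h but neither pattern: Gadd45b, Smad7, Bhlhe40 and F3. Smad7 encodes the inhibitory SMAD of the feedback loop on the receptor. Its response was 0.30 at 24 h (limma adjusted p = 0.309) and 1.07 at 1 h (adjusted p = 0.00276), and the change of -0.78 (SE 0.24, adjusted p = 0.138) did not pass. Gadd45b, a stress-response gene, had 0.18 at 24 h (adjusted p = 0.34) and 0.71 at 1 h (adjusted p = 0.00234). Their estimates were nearer 0 at 24 h, without a called change. Bhlhe40, a helix-loop-helix repressor, had 0.23 at 24 h (adjusted p = 0.335) and 0.81 at 1 h (adjusted p = 0.00512).

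The promoter of Rhob is shown as an example of a sustained gene whose window holds the core SMAD motif. The window runs from 250 bases before to 50 bases after the start annotated by RefSeq in GRCm38.p6 (chr12:8499960-8500259, minus strand), read 5′ to 3′ on the strand of the gene. Capitals mark CAGAC, the short core bound by SMAD3 and SMAD4, and CCAAT, the box bound by NF-Y, on either strand (GTCTG and ATTGG in reverse).
Rhob: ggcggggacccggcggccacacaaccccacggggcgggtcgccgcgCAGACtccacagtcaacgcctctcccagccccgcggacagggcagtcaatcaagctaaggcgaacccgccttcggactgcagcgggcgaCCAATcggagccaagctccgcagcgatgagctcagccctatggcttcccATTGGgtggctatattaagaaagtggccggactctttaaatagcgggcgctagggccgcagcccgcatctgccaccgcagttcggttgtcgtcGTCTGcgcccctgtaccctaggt
CAGAC or its reverse occurred in 49.6% of all 32851 RefSeq promoter windows and in 47.6% of those of the genes on the array, so its presence here is a description.

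Of 28 measured targets of TGF-β and SMAD signalling, 7 had a called response at 1 h, all of them higher. Over all features 0.101% were called higher at 1 h. This list and those below were chosen with earlier results of these data known. The list's median response at 1 h was 0.182, against -0.00221 over all features. By 24 h against 1 h, 4 of the 28 fell (Klf10, Id2, Id1 and Skil) and 1 rose (Snai2). Over all features 0.707% fell and 0.483% rose. The list's median change was -0.0317, against -0.0183 over all features. Id1 and Id2 encode dominant-negative helix-loop-helix proteins that hold back differentiation. The log2 ratios of Id2 in ras cells were -0.69, -0.26 and 0.34 at 24 h, against 0.32, 0.73 and 1.19 at 1 h. In primary cells they were -1.81, -0.69 and -0.27 at 24 h, against -0.08, 0.32 and 1.12 at 1 h. Id2 thus lay mostly below 0 at 24 h and above it at 1 h, with no overlap in primary cells and a slight one in ras cells. Its change was -1.15 (SE 0.18, limma adjusted p = 0.00115), and that of Id1 was -1.22 (SE 0.22, adjusted p = 0.00346). Their responses at 1 h, 0.60 for Id2 (adjusted p = 0.0513) and 0.52 for Id1 (adjusted p = 0.43), did not pass, so both are counted as late. Cdkn2b, the CDK4 and CDK6 inhibitor p15, had a change of 0.62 (SE 0.25, adjusted p = 0.283), and Tgfbi, a matrix protein named for its induction by TGF-β, one of 0.80 (adjusted p = 0.456). The pathway's own members Tgfb1, Tgfbr2, Smad2, Smad3 and Smad4 had adjusted p-values between 0.277 for Smad2 and 0.914 for Smad3, and none passed.

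Named one by one here are the 12 rises and 12 falls with the largest moderated t of limma among called genes with the same sign in both cell types. Among the 12 rises, the 24 h arrays lay wholly above the 1 h arrays for 7 genes in ras cells, 4 in primary cells and 3 in both. Among the 12 falls, they lay wholly below for 8 in ras cells, 10 in primary cells and 6 in both. Over all features such a separation was seen for 2.02% in ras cells, 0.438% in primary cells and 0.124% in both, but the 24 genes were chosen on this contrast. The arrays fall into runs of neighbouring experiment numbers of the submitters' database, and 11 times a run held both times in a cell type. All 11 differences within runs had the sign of the change for 8 of the 12 rises and for 12 of the 12 falls. The mean at 6 h, averaged over the cell types, lay between those at 1 h and 24 h for all 24. Both of these are descriptions, since the 24 genes were chosen on the same 24 h and 1 h arrays. Their share over all features was not counted.

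The largest rise was that of Clu, which encodes the secreted chaperone clusterin. Ras cells had log2 ratios of 1.29, 2.85 and 4.40 at 24 h, against -0.28, 0.64 and 1.06 at 1 h. Primary cells gave 1.26, 2.14 and 3.21 at 24 h, against 0.08, 0.22 and 0.68 at 1 h. The times did not overlap in either cell type. The change was 2.12 (SE 0.29, limma adjusted p = 0.000272), a ratio 4.36 times higher at 24 h. In ras cells Clu averaged 0.53 at 1 h, 2.12 at 6 h, 2.87 at 24 h and 2.23 at 48 h. In primary cells it averaged 0.27 at 1 h, 0.60 at 6 h, 2.18 at 24 h and 2.88 at 48 h. The 6 h mean was thus nearer the 24 h mean in ras cells and nearer the 1 h mean in primary cells, a difference that was not tested. Trp53inp1, a p53-induced stress protein, had log2 ratios of 0.56, 1.00 and 1.57 in ras cells at 24 h, against -0.43, -0.05 and 0.09 in ras cells at 1 h. The primary values were 0.23, 0.45 and 1.80 at 24 h, against -0.43, -0.19 and 0.05 at 1 h. Again no array of one time reached the range of the other, and the change was 1.08 (SE 0.18, limma adjusted p = 0.0025).

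Several genes of the matrix and of its assembly rose. Of 39 measured members of a list of extracellular matrix genes, 4 rose, where 0.483% of all features did, and none fell, with a median change of 0.278, against -0.0183 over all features. The risers were Col4a2, Sparc, Serpinh1 and Col18a1. Col4a2 encodes a chain of the type IV collagen of basement membranes. Its log2 ratios in ras cells were 0.60, 0.66 and 1.57 at 24 h, against -0.66, -0.12 and 0.15 at 1 h. Those of primary cells were 0.42, 0.67 and 0.95 at 24 h, against -0.36, 0.10 and 0.26 at 1 h. The times were separate in both cell types, and the change was 0.86 (SE 0.13, limma adjusted p = 0.00115).

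Sparc, a glycoprotein that binds collagen, had log2 ratios of 0.75, 0.90 and 1.30 in ras cells at 24 h, against -0.27, -0.10 and 0.14 in ras cells at 1 h. Primary keratinocytes had -0.01, 0.46 and 1.86 at 24 h, against -0.77, -0.17 and 0.37 at 1 h. The ras groups were separate and the primary groups were not, with the highest primary 24 h value on replicate 6. The change of Sparc was 0.90 (SE 0.17, limma adjusted p = 0.00444). Serpinh1, the collagen chaperone HSP47, changed by 0.67 (SE 0.13, adjusted p = 0.00738), and Col18a1, a basement membrane collagen, by 0.82 (SE 0.18, adjusted p = 0.018). Among members that did not pass, Col4a1 had a change of 0.51 (adjusted p = 0.237) and Fbln2 one of 0.80 (adjusted p = 0.0621).

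Of 15 measured mesenchymal markers, 3 rose, Sparc, Snai2 and Mmp2, and none fell, with a median change of 0.284. Over all features 0.483% rose and the median change was -0.0183. Snai2 encodes Slug, a repressor of epithelial genes. In ras cells its lowest, median and highest values were 0.14, 0.69 and 1.23 at 24 h, against -0.81, -0.30 and 0.18 at 1 h. In primary cells they were -0.19, 0.10 and 0.78 at 24 h, against -0.69, -0.29 and 0.04 at 1 h. The times overlapped slightly in both cell types, and the change was 0.75 (SE 0.15, limma adjusted p = 0.0111). Mmp2, a gelatinase, changed by 0.57 (SE 0.14, adjusted p = 0.0435), and its call was lost in 19 of the 24 fits without 1 array, with adjusted p-values up to 0.0909. Of the other markers, Twist1 had a change of 0.46 (adjusted p = 0.18) and Acta2 one of -0.04 (adjusted p = 0.926). Estimates were positive for 13 of the 15 markers and negative for 2. The lowest, -1.61, was larger in size than the highest, 0.897, and did not pass the limma test.

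Markers of cells other than keratinocytes were set beside these rises. None of 9 fibroblast markers passed the limma test (2 had an unadjusted p under 0.05), and their median change was 0.129. The mean ratio of the 9 markers over an array ran from -0.326 to 0.354 in ras cells at 24 h, against -0.391 to 0.182 in ras cells at 1 h. It ran from -0.571 to 1.12 in primary cells at 24 h, against -0.829 to 0.10 in primary cells at 1 h, so the upper end was higher at 24 h. The 1.12 came from primary 24 h replicate 6, and the next highest array mean of that group was 0.311. On replicate 6 Col1a1 stood at 4.377 and Col1a2 at 3.889, and the highest values of Sparc (1.859) and Serpinh1 (1.294) in primary cells at 24 h were on the same array. Without that array the changes of Sparc (0.78, limma adjusted p = 0.00219) and Serpinh1 (0.61, adjusted p = 0.00863) were still called. Of the 18 immune markers only Lyz2, which encodes lysozyme, was called, where 0.483% of all features rose. Its change was 0.76 (SE 0.18, limma adjusted p = 0.0394), and the call was lost in 14 of the 24 fits without 1 array. None of the 6 endothelial and 4 melanocyte markers passed, or had an unadjusted p under 0.05. The part of such cells in the rises was not tested.

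The other genes of the 12 rises belong to no shared group. Axl encodes a receptor tyrosine kinase for GAS6, and its log2 ratios had medians of 0.41 in ras and 0.63 in primary cells at 24 h, against -0.29 in ras and -0.13 in primary cells at 1 h. Its change was 0.61 (SE 0.11, limma adjusted p = 0.00475). Cpe, carboxypeptidase E of the secretory pathway, changed by 1.00 (SE 0.20, adjusted p = 0.0103). Krtcap2, a subunit of the oligosaccharyltransferase that glycosylates proteins, changed by 0.69 (SE 0.13, adjusted p = 0.00543), by 1.03 within ras cells and by 0.36 within primary cells. Mllt11, a gene first found as a fusion partner in leukaemia, changed by 0.64 (SE 0.11, adjusted p = 0.00251), and Mtap, which recycles methionine, by 0.59 (SE 0.11, adjusted p = 0.00573). The arrays of both times overlapped in both cell types for Axl, Cpe and Mtap.

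**Figure D2:**
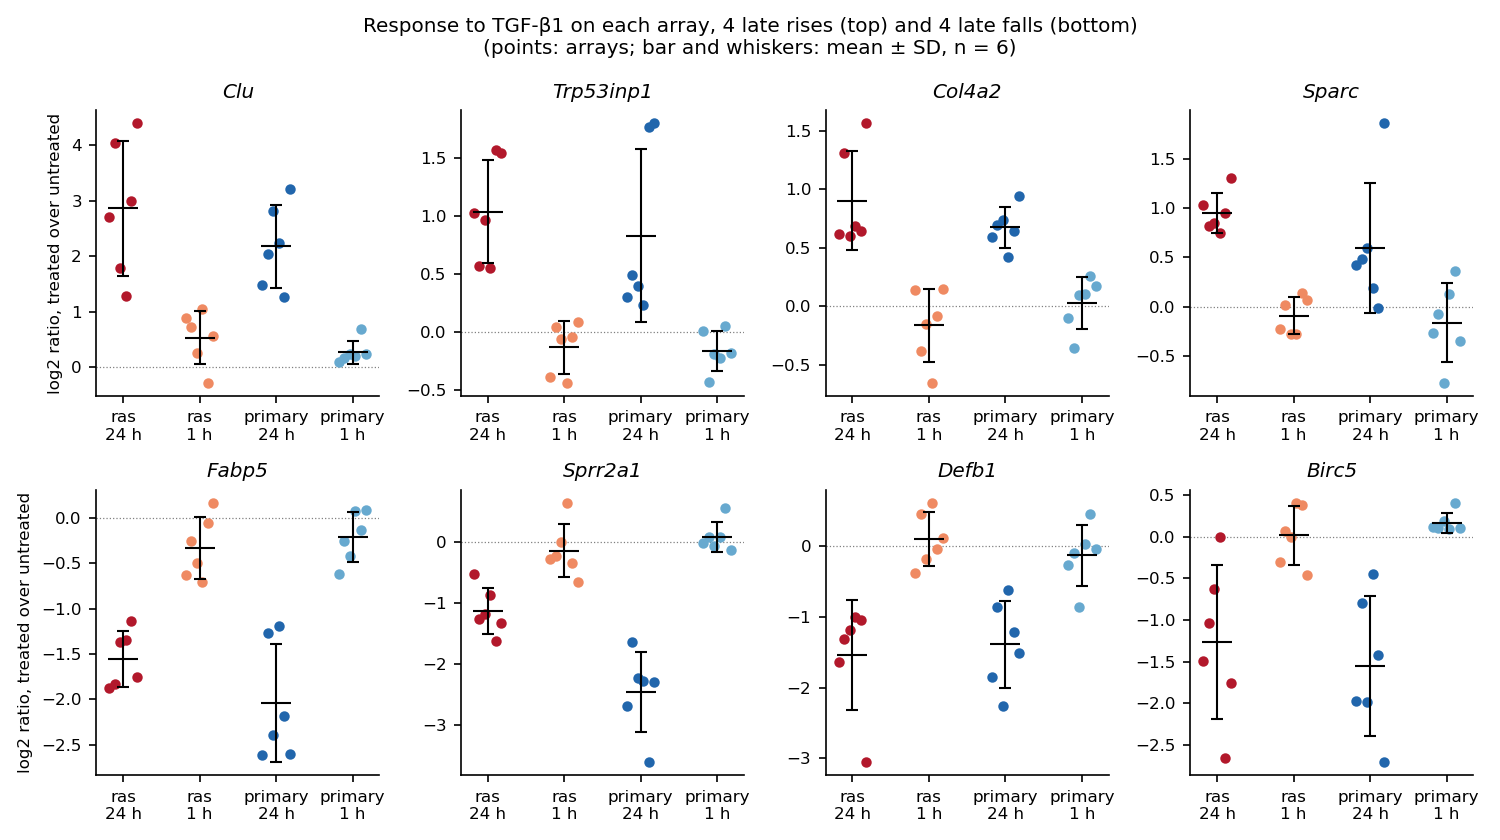
Log2 ratio (treated over untreated) on each of the 24 arrays for 4 late rises and 4 late falls, with the mean and SD of each group of 6. All 24 h arrays of Clu, Trp53inp1, Col4a2 and Fabp5 lie outside the range of the 1 h arrays of their cell type.

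Of 15 measured genes of epidermal terminal differentiation 4 fell, Fabp5, Sprr2a1, Sprr1a and Ppl, and none rose. Over all features 0.707% fell, and the median change was -0.634 in the list, against -0.0183 over all features. Fabp5 encodes the epidermal fatty acid binding protein. Ras cells had log2 ratios of -1.88, -1.56 and -1.14 at 24 h, against -0.71, -0.37 and 0.17 at 1 h. Primary cells gave -2.62, -2.29 and -1.19 at 24 h, against -0.62, -0.20 and 0.09 at 1 h. No 24 h array reached the lowest 1 h array of its cell type, and the change was -1.53 (SE 0.18, limma adjusted p = 4.72e-05), a ratio 2.89 times lower. At 6 h the mean of Fabp5 was still -0.36 in ras and -0.35 in primary cells, and at 48 h it was -1.96 in ras and -1.52 in primary cells.

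Sprr2a1 encodes a small proline-rich protein that is cross-linked into the cornified envelope. Its log2 ratios in ras cells were -1.61, -1.22 and -0.53 at 24 h, against -0.65, -0.25 and 0.65 at 1 h. The primary values were -3.60, -2.28 and -1.63 at 24 h, against -0.13, 0.04 and 0.56 at 1 h. The primary groups lay far apart and the ras groups overlapped slightly, and the change was -1.77 (SE 0.24, limma adjusted p = 0.000272). The change was -0.99 within ras cells and -2.54 within primary cells, and the difference of 1.55 did not pass its own test (SE 0.37, adjusted p = 0.907). Sprr1a, of the same family, changed by -1.46 (SE 0.26, adjusted p = 0.00336), and Ppl, which encodes the envelope protein periplakin, by -0.83 (SE 0.15, adjusted p = 0.00387). Members that did not pass had changes of -0.63 for Flg (adjusted p = 0.17), -0.35 for Lor (adjusted p = 0.537) and -0.21 for Krt10 (adjusted p = 0.648).

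The promoter of Sprr1a is shown for the sites of the factor AP-1, which FOS and JUN proteins form and which late epidermal genes are known to use (chr3:92485832-92486131, minus strand, GRCm38.p6, RefSeq). Capitals mark TGACTCA, here in its reverse form TGAGTCA, and the TATA box TATAAA.
Sprr1a: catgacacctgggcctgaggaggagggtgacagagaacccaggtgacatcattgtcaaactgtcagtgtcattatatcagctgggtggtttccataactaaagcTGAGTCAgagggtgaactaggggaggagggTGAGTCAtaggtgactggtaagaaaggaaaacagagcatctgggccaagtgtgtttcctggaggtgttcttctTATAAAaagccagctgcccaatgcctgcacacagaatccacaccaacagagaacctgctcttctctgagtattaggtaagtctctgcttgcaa
An AP-1 motif stood in 10.3% of the 39 promoter windows of the late falls, 3.03% of the 33 of the late rises and 4.33% of those of all genes on the array. The match is a description of these letters only.

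Of the other falls, Defb1, a β-defensin that kills microbes at epithelia, had log2 ratios of -3.05, -1.25 and -0.99 in ras cells at 24 h, against -0.38, 0.03 and 0.62 in ras cells at 1 h. Those of primary cells were -2.27, -1.36 and -0.61 at 24 h, against -0.85, -0.07 and 0.46 at 1 h. The ras groups were separate and the primary groups overlapped, and the change was -1.45 (SE 0.23, limma adjusted p = 0.00115). Il1f5, which encodes an antagonist of the interleukin-36 receptor, had log2 ratios of -3.36, -1.93 and -1.57 in ras cells at 24 h, against -0.59, -0.13 and 0.17 in ras cells at 1 h. Primary keratinocytes had -4.24, -1.29 and -0.79 at 24 h, against -0.55, -0.03 and 0.26 at 1 h. The times were separate in both cell types, and the change of -1.85 (SE 0.29, adjusted p = 0.0013) was the most negative of the 12 falls. Defb1 and Il1f5 were the 2 called of 26 measured members of a list of cytokine, chemokine and NF-kB genes. Over all features 0.707% fell. Endou, a poly(U)-specific endoribonuclease, changed by -1.29 (SE 0.21, adjusted p = 0.00211). Tmem45a, a transmembrane protein, changed by -1.31 (SE 0.17, adjusted p = 0.000246), and its 6 ras 24 h values lay within -1.22 to -1.02. Fam162a, a mitochondrial protein that responds to hypoxia, changed by -0.99 (SE 0.15, adjusted p = 0.00115).

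Of 39 measured genes of mitosis and G2/M, 9 fell, where 0.707% of all features did, and the list's median change was -0.475, against -0.0183 over all features. The 9 were Birc5, Mki67, Cenpa, Mad2l1, Cenpe, Top2a, Kif20a, Kif23 and Ncaph, of which 7 kept the call without the 2 widest ras 24 h arrays and 5 kept it whichever 1 array was left out. Kif20a, Kif23 and Ncaph lost it in 15, 19 and 18 of those 24 fits, and Top2a in 5. Birc5 encodes survivin, a subunit of the chromosomal passenger complex that corrects spindle attachments. In ras cells its lowest, median and highest values were -2.65, -1.27 and -0.01 at 24 h, against -0.46, 0.04 and 0.41 at 1 h. In primary cells they were -2.71, -1.69 and -0.44 at 24 h, against 0.09, 0.12 and 0.40 at 1 h. The primary groups were separate and the ras groups overlapped, with a wide spread at 24 h in both. The change was -1.50 (SE 0.25, limma adjusted p = 0.00255).

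Mki67, the proliferation antigen Ki-67, had log2 ratios of -1.01, -0.75 and -0.14 in ras cells at 24 h, against 0.03, 0.23 and 0.42 in ras cells at 1 h. Primary cells gave -1.35, -0.74 and -0.34 at 24 h, against -0.52, -0.25 and 0.52 at 1 h. The ras groups did not overlap, and the change was -0.77 (SE 0.14, limma adjusted p = 0.00351). Cenpa, the histone variant of centromeres, changed by -1.15 (SE 0.25, adjusted p = 0.0178), and Mad2l1, of the spindle checkpoint, by -0.82 (SE 0.18, adjusted p = 0.022). Top2a, topoisomerase IIα, changed by -1.05 (SE 0.24, adjusted p = 0.0272). Genes that missed the threshold had estimates of -0.94 for the mitotic kinase gene Plk1 (adjusted p = 0.0752) and -0.85 for Cdk1 (adjusted p = 0.0979), while that of the cyclin gene Ccnb2 was 0.06 (adjusted p = 0.903). Of 33 measured S phase and DNA replication genes, 4 fell, where 0.707% of all features did, with a median change of -0.326, against -0.0183 over all features. These were Tyms and Rrm2, which supply deoxynucleotides, Mcm5 of the replicative helicase and Ung, a uracil-DNA glycosylase whose call was lost in 14 of the 24 fits without 1 array. Tyms changed by -0.73 (SE 0.13, adjusted p = 0.00336) and Mcm5 by -0.92 (SE 0.17, adjusted p = 0.00346). Tubb4b, a β-tubulin, changed by -0.95 (SE 0.13, adjusted p = 0.000272), and Hmgn2, which binds nucleosomes, by -0.75 (SE 0.13, adjusted p = 0.00268). None of 12 cyclin-dependent kinase inhibitors and G1 regulators passed, and 2 had an unadjusted p under 0.05.

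Promoters of mitotic genes that fell are shown for the cell cycle homology region TTTGAA, read by the DREAM and MuvB complexes in late cell cycle promoters, and for the CCAAT box, often found upstream of it. The windows, from RefSeq in GRCm38.p6, are those of Top2a (chr11:99024140-99024439, minus strand), Mki67 (chr7:135716330-135716629, minus strand) and Cenpa (chr5:30666636-30666935, plus strand), each on the strand of its gene, with both motifs in capitals in either orientation (TTCAAA and ATTGG in reverse).
Top2a: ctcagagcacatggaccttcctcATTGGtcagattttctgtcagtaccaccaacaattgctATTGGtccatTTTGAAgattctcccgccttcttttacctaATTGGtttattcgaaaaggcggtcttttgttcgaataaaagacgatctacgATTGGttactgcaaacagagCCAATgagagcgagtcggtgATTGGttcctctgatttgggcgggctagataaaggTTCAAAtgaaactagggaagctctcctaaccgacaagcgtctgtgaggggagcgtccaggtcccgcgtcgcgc
Mki67: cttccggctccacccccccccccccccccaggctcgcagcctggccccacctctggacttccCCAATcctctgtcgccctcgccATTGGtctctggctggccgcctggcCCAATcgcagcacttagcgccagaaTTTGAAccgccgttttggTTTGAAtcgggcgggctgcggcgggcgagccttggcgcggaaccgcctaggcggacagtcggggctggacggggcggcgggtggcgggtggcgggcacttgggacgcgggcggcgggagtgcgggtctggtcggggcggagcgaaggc
Cenpa: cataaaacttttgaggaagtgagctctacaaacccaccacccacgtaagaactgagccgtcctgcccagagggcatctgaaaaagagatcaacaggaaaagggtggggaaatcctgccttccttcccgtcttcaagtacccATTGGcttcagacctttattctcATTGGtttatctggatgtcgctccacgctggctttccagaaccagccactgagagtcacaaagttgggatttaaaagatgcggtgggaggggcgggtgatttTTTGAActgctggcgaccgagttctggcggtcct
TTTGAA stood in 4 of the 8 windows of late falls of the mitosis list, in 25.6% of the windows of all late falls, in 3.03% of those of late rises and in 12.6% of those of the genes on the array. CCAAT stood in 5 of the 8 and in 36.5% of the windows of genes on the array. These shares describe the windows and were not tested.

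**Figure D3:**
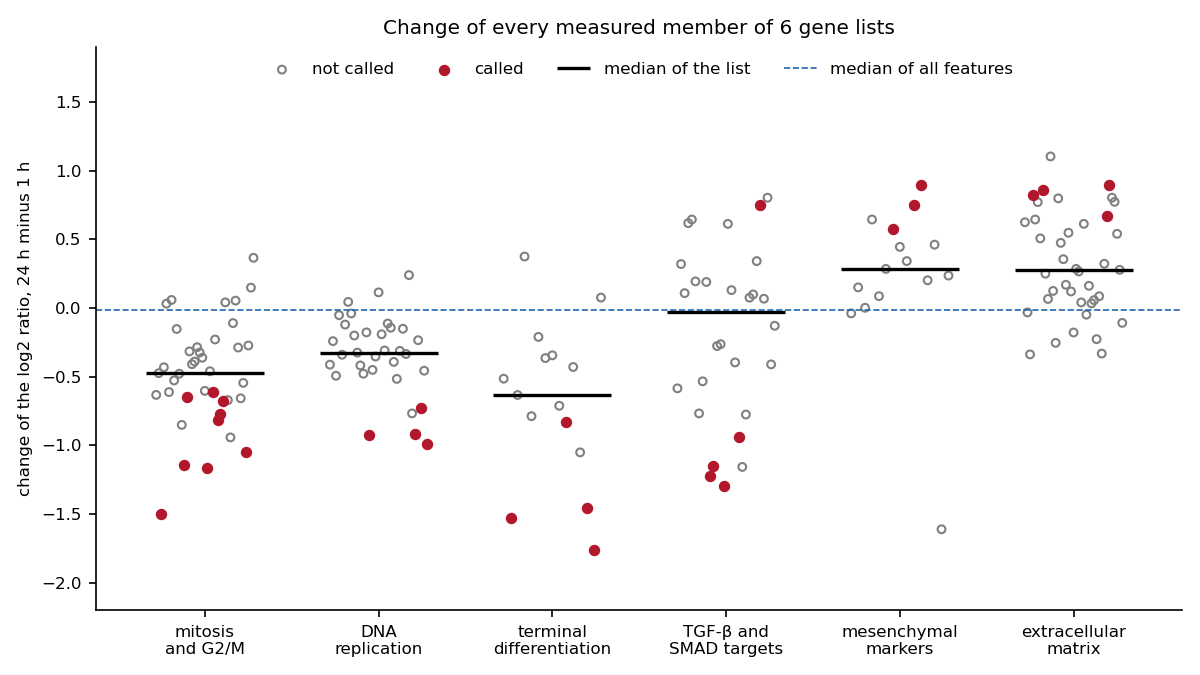
Change (24 h minus 1 h, log2) of every measured member of 6 gene lists, members in alphabetical order within a list, with called members filled, the list median as a bar and the median of all features as a dashed line. In the 3 lists on the left no called member lies above 0, and in the 2 on the right none lies below it.

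Of 22 immediate early genes and MAP kinase feedback genes, Myc rose and Egr3 and Nr4a1 fell. For this and the following lists, 0.483% of all features rose and 0.707% fell. Egr3 and Nr4a1, both early transcription factors of growth factor signalling, changed by -0.74 (SE 0.17, adjusted p = 0.0344) and -0.74 (SE 0.18, adjusted p = 0.0399), and their calls were lost in 12 and 15 of the 24 fits without 1 array. Of 29 proteases and inhibitors, Ctla2b and Mmp2 rose and Serpinb5, the inhibitor-like protein maspin, fell by 0.66 (SE 0.14, limma adjusted p = 0.0157). Ctla2b, homologous to the propeptide of cathepsins, changed by 1.20 (SE 0.27, adjusted p = 0.0262), by 1.89 within ras cells and 0.51 within primary cells, and lost its call without ras 1 h replicate 2 or 3. Other lists held no called member by limma, and at an unadjusted p under 0.05, which 13.1% of all features had, they held some. These were 8 of 25 basal keratinocyte and junction genes, 5 of 28 integrin, focal adhesion and actin genes, 1 of 10 growth factors, 2 of 15 genes of cholesterol and fatty acid synthesis and 2 of 24 of oxidative phosphorylation. Likewise they were 1 of 20 ribosomal protein genes, 5 of 27 of glutathione and antioxidant defence, 5 of 24 of apoptosis and the p53 pathway and 5 of 18 of the unfolded protein response. Of 22 MYC and ribosome biogenesis genes, Myc itself was the one called. Of 19 interferon response and antigen presentation genes, only Psme1, at the edge of the threshold, was called.

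Within ras cells the change passed for 46 features (0.517%), 27 higher (0.303%) and 19 lower (0.213%), and within primary cells for 12 (0.135%), 1 higher (0.0112%) and 11 lower (0.124%). Both came from a fit of the group means, in which the spread was shared by all 24 arrays. The difference between the changes, ras minus primary, was tested directly and passed for 1 feature (0.0112%), F3, with 401 at an unadjusted p under 0.05. F3 encodes tissue factor, which starts blood coagulation. Ras cells had log2 ratios of -1.45, -0.38 and -0.25 at 24 h, against 0.64, 1.38 and 1.72 at 1 h. The primary values were 0.30, 0.80 and 1.15 at 24 h, against 0.11, 0.63 and 0.85 at 1 h. All ras arrays were below 0 at 24 h and above it at 1 h, while all primary arrays were above 0 at both times. The change was -1.75 in ras cells (limma adjusted p = 0.000701) and 0.22 in primary cells, and the difference was -1.97 (SE 0.32, adjusted p = 0.0264). The call was lost in 11 of the 24 fits without 1 array, with adjusted p-values up to 0.0782, while the difference itself ran from -2.08 to -1.79. It was also lost without the 2 widest ras 24 h arrays (limma adjusted p = 0.0922). Over time F3 averaged 1.22, 1.41, -0.54 and 0.83 in ras cells at 1, 6, 24 and 48 h, and 0.58, 0.23, 0.79 and 0.96 in primary cells, so the ras mean at 24 h stood alone below 0.

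**Figure D4:**
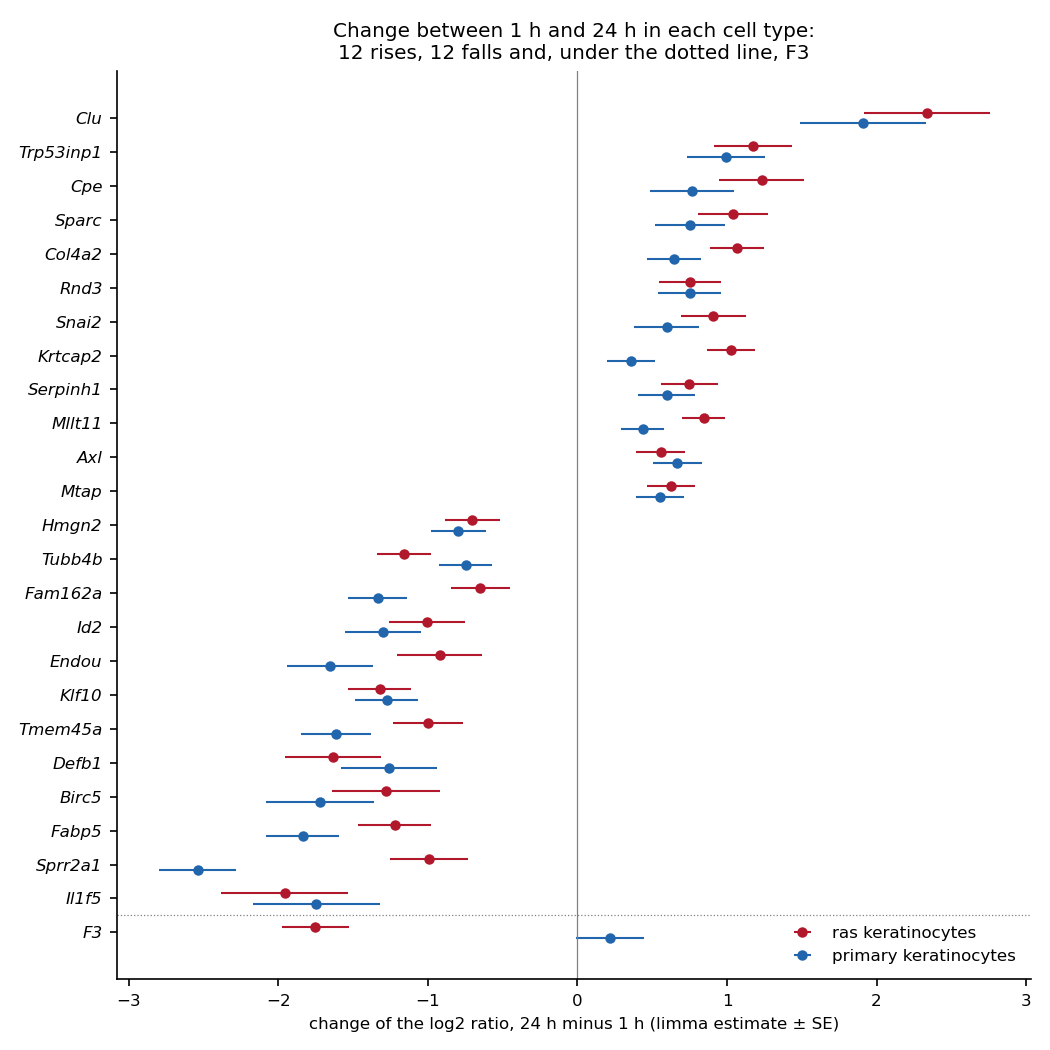
Change of the log2 ratio between 24 h and 1 h (limma estimate ± SE) in ras and primary keratinocytes for the 12 rises, the 12 falls and F3. The 24 genes lie on the same side of 0 in both cell types because they were chosen by that rule. F3, chosen for its called difference between the cell types, lies at -1.75 in ras cells and at 0.22 in primary cells.

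At 48 h the mean log2 ratios of the late genes were available from arrays outside the comparison. Sprr2a1 averaged -2.22 in ras cells and -2.32 in primary cells at 48 h, and Clu averaged 2.23 in ras and 2.88 in primary cells. Birc5 averaged -0.81 in ras and -0.14 in primary cells at 48 h, nearer 0 than its -1.26 in ras and -1.55 in primary cells at 24 h. The 48 h minus 24 h change was called for 228 features (2.56%), 148 higher (1.66%) and 80 lower (0.898%). It was called higher for 5 of the 40 late rises and for 8 of the 59 late falls, and lower for 0 of either. For none of the 24 named genes was it called, where that of Birc5 was 0.93 (limma adjusted p = 0.089). That comparison shares its 24 h arrays with the one above.

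The reversed ras 24 h array, on which the treated RNA carried Cy3, gave a further reading of the 24 h response. Whether its sign had been turned before deposit is not given in the sources used here. As deposited, its value had the opposite sign to the 24 h response for 11 of the 12 rises and for 12 of the 12 falls. The same held for 87 of the 99 late features, and for 47.9% of all features. Among all features with a called change, it held for 31 of the 43 rises and for 61 of the 63 falls. Clu stood at -2.41 on it, Il1f5 at 1.66, Fabp5 at 1.52, Defb1 at 1.28 and Sprr2a1 at 1.18. Of the 12 rises, Rnd3 alone kept its sign, at 0.23. F3 stood at 1.02, against -0.54 as the mean of the 6 ras 24 h arrays used.

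**Figure D5:**
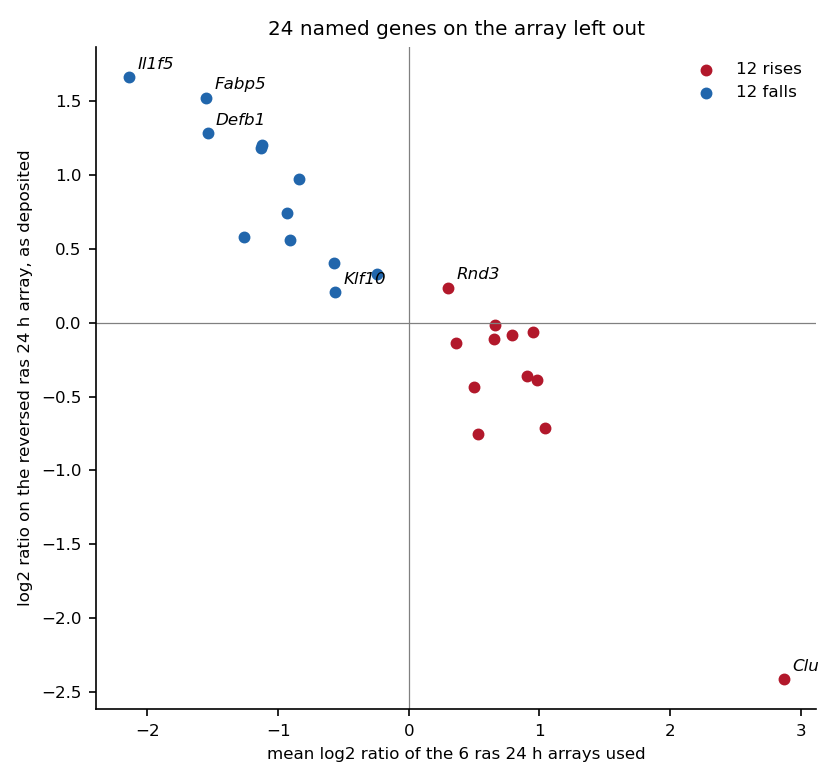
Log2 ratio of the 24 named genes on the reversed ras 24 h array as deposited (vertical) against their mean over the 6 ras 24 h arrays used (horizontal). Clu lies at -2.41 on the reversed array, and all points but Rnd3 lie in the quadrants of opposite sign.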

How the data were processed

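RNA of treated and untreated cells was compared on 2-colour arrays. Per the labels, treated RNA carried Cy5 and untreated RNA Cy3, total RNA was isolated with TRIzol and RNeasy, and replicates are numbered arrays of a group. The values the authors deposited, read here as log2 ratios of the Cy5 over the Cy3 channel, were 1 per probe for 9596 probes on 56 arrays, with 0 missing. Their log base, background correction and normalization, and whether each time had its own untreated cells, are not stated in the labels or files.

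The median of each array was subtracted and probes were averaged per gene symbol, with 7486 probes of 1 symbol, 483 of several (kept unnamed) and 1627 of none. Symbols came from the platform annotation and were updated through RefSeq by Entrez ID for 7395 probes. The 8905 features were tested in R 4.3.3 with lmFit and eBayes of limma 3.58.1 (two-sided, cell type as a block, Benjamini-Hochberg over all features). Changes within a cell type and their difference came from a fit of the group means of the same arrays. The 48 h minus 24 h and 6 h minus 1 h changes came from a fit of the means of all Balb/c groups with treated RNA in Cy5. A feature with responses at 24 h and 1 h of the same sign was taken as sustained only where both were called. The reversed-fluor array was left out because the sign of its deposited values is not stated. The code was tested on simulated data.

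Genes were named by rule: the 12 rises and 12 falls with the largest moderated t, the transient and sustained genes, the called ras minus primary differences, up to 4 members per list by moderated t, and the pathway's ligand, receptors and SMADs. Called members behind the list counts are named as well, and the uncalled examples Acta2, Ccnb2, Cdk1, Col4a1, Fbln2, Flg, Krt10, Lor, Plk1 and Tgfbi were chosen after their values were seen. The members and the 25 gene lists were chosen with earlier results of these data known. Alternatives were blocks by replicate number and by database run, centring, scaling, array weights, all 49 Cy5 arrays in 1 fit, the reversed array added either way, unaveraged probes, robust regression, a filter on values over 4, and leaving out each array. Leaving out both widest ras 24 h arrays was chosen after seeing the data. Promoters were matched by symbol to RefSeq windows (GRCm38.p6) for 5377 of 6795 named genes.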

Additional observations from a re-analysis of the deposited data

Results flagged for a closer look

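Among 124 pairs of a gene and a group of 6 arrays, over the 31 genes with the largest statistics, 12 had 1 array whose gap to the nearest of the other 5, as a share of the range, passed Dixon's critical value, which by its definition chance passes in about 1 in 20 groups. Primary 1 h replicate 5 was the array in 5 of them: Birc5 at 0.403 (others 0.091 to 0.196), Clu at 0.681 (0.084 to 0.24), Endou at 1.015 (-0.392 to 0.049), Mllt11 at -0.306 (0.019 to 0.118) and Sprr2a1 at 0.564 (-0.128 to 0.09). In ras cells at 24 h, Adamts1 stood at -1.522 on replicate 1 (others -0.68 to -0.291), Defb1 at -3.051 on replicate 7 (-1.641 to -0.995) and F3 at -1.446 on replicate 5 (-0.487 to -0.246). In primary cells at 24 h, Krtcap2 stood at 0.949 on replicate 5 (others 0.061 to 0.3), and on replicate 6 Serpinh1 stood at 1.294 (0.115 to 0.497) and Sparc at 1.859 (-0.009 to 0.596). In ras cells at 1 h, Tubb4b stood at 0.692 on replicate 4 (others 0.049 to 0.276).

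The change of F3 differed between the cell types by a direct test, with a difference of -1.97 (ras minus primary). That call was lost in some fits without 1 array, with the replicate number as a block and without both widest ras 24 h arrays.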

How the results depend on the processing

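The change between 24 h and 1 h was called for 87 to 148 features under the database-run block, no centring, scaling, the 49-array fit, the reversed array turned, unaveraged probes, the filter on wide values and without both widest ras 24 h arrays (73 shared), against 106 as reported. It was called for 213 with array weights, 298 with robust regression and 16 with the reversed array as deposited. Leaving out 1 array gave 62 to 125, with 62 without ras 1 h replicate 2 or 3 and 68 without ras 24 h replicate 6. Late features then numbered 60 to 118, transient 1 to 9, sustained 2 to 6, responses at 24 h 409 to 615 and at 1 h 10 to 21, changes within ras cells 12 to 133 and within primary cells 8 to 15, and ras minus primary differences 0 to 1. The count within ras cells was 133 without ras 24 h replicate 3, 72 and 100 without primary 24 h replicates 5 and 6, and 12 to 30 without ras 1 h replicates 1, 2, 3, 4 or 6, ras 24 h replicates 6 or 7 or primary 1 h replicate 1. Responses at 1 h numbered 21 without primary 24 h replicate 6. Of the 24 genes named by size of t, all 24 kept the call whichever array was left out, but 7 kept it under every alternative run. Clu, Trp53inp1, Cpe, Fabp5, Defb1, Il1f5, Tmem45a and Fam162a lost it only with the reversed array as deposited. Of all 85 called named genes, 48 kept the call whichever array was left out and 7 under every alternative run. With the replicate number as a block, 31 features changed (8 higher and 23 lower), 0 within ras cells, 7 within primary cells and 0 between them (1249 within ras cells and 487 between cell types at an unadjusted p under 0.05 by limma). Of the 12 rises 4 kept the call with that block and of the 12 falls 11 did. Axl, Krtcap2, Mllt11, Mtap, Rnd3, Serpinh1, Snai2, Sparc and Endou lost it, at adjusted p-values from 0.0602 to 0.104 by limma. It was kept by 23 of the 85 called named genes. By list these were 4 of 5 in TGF-β targets, 4 of 4 in differentiation, 2 of 2 in cytokines, 1 of 9 in mitosis, 1 of 4 in S phase, 1 of 4 in matrix, 1 of 3 in proteases, 0 of 3 in mesenchymal markers and 0 of 3 in immediate early genes. The labels do not say what a number marks. Same-numbered arrays deviated together with correlations of -0.0798 to 0.2935 (median 0.121) over 5 ras pairs and -0.0518 to 0.2479 (median 0.15) over 6 primary pairs. The correlation was over 0.1 in 7 of the 11 pairs and not in 4, 9 of the 11 also shared a database run, and 6 of the 24 h arrays correlated best with their own number. Whether the numbers pair the arrays is therefore not settled.

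F3 was the one ras minus primary difference, and 0 features passed the limma test (351 to 710 at an unadjusted p under 0.05) with the run block, scaling, all 49 arrays, the reversed array as deposited or both widest arrays out, 4 with weights and 35 with robust regression. Within ras cells there were 100 with the run block, 18 scaled, 325 weighted, 93 in the 49-array fit, 2 with the reversed array as deposited and 911 with robust regression. Within primary cells there were 21 scaled, 48 weighted, 3 with the reversed array as deposited and 52 with robust regression. Responses at 24 h numbered 996 weighted and 361 with the reversed array as deposited, and responses at 1 h 21 scaled, 34 weighted and 20 without both widest arrays. Transient genes numbered 7 weighted and 2 with the reversed array as deposited. Sustained genes numbered 7 weighted, 2 in the 49-array fit and 8 without both widest arrays. Late features numbered 187 weighted and 13 with the reversed array as deposited. The 48 h minus 24 h change was called for 73 scaled and 792 weighted, and the 6 h minus 1 h change for 4 scaled and 56 weighted. The causes were not tested. For none of the 85 called named genes did the change reverse its sign, and called features without a gene name were not examined for this. Estimates of uncalled genes such as Smad3, Cdh1, Tgfb1, Tgfbr2 and Trp63 fell on either side of 0 between settings. With only ratios deposited, signal over background is unknown.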
